A study of Mus musculus with 41 samples.

Results

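The 10 genes described here code for 5 S100 proteins (S100a4, S100a6, S100a10, S100a11 and S100a13) and 5 annexins (Anxa1, Anxa2, Anxa3, Anxa5 and Anxa13). They were matched by symbol, as a given list, among the 48795 genes of a count table of mouse kidney mRNA, and no threshold on their values was applied. The list was chosen with earlier results of these data known. The first cohort held 4 groups of 6 male mice aged 8 to 10 weeks. Control mice had no ischemia. In the other groups the left kidney was made ischemic for 21 minutes at a core temperature of 34 °C and then reperfused (unilateral ischemia-reperfusion injury, UIRI). Mice of UIRI d3 were killed on day 3. Mice of UIRI d7 had a sham operation on day 3 and were killed on day 7, so that they kept their uninjured right kidney. In UIRI+Nx d7 the right kidney was removed on day 3 (nephrectomy, Nx) and the mice were killed on day 7. The second cohort, labelled WT, held 6 libraries of UIRI d3, 6 of UIRI d7 and 4 of UIRI+Nx d7, with no Control group. Its labels give treatment and time but no age, sex or surgical detail. RNA came from 1 frozen pole section of each kidney, and bulk RNA of this kind cannot tell fewer cells of a type from less RNA per cell.

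S100 proteins are small calcium sensors that change shape when calcium rises and then bind target proteins, and several are also released from cells and act on receptors of neighbouring cells. Annexins bind negatively charged membrane lipids when calcium rises, and are known for membrane repair, vesicle traffic and the control of inflammation. Some members work in pairs, since an S100 dimer can bridge a pair of annexin molecules. In injured kidney, both families are known from damaged tubule cells, infiltrating leukocytes and fibroblasts.

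Levels are given as CPM (the count of a gene relative to all counts of its library, per 1e6), scaled by trimmed mean of M-values (TMM) factors, and libraries held between 5090418 and 33362940 counts. Differences are log2 fold changes from the quasi-likelihood test of edgeR with their standard error (SE), and adjusted p-values are Benjamini-Hochberg values over all 15701 genes tested in the first cohort or 15543 in the second. A gene is called changed at an adjusted p under 0.05. The 3 comparisons with Control share the same 6 Control libraries. All 8 proximal tubule markers were present in the libraries, with a summed level of 43100 to 67800 CPM in Control. Of the 10 genes, 9 had reads in all 41 columns of the table. Anxa13, an annexin of polarized epithelium, had 45 reads over all 41 columns and none in 24 of them, so it did not pass the filter on low counts. In a fit without that filter its edgeR adjusted p was 0.311 or more in every comparison. Its highest count in a library was 9, and its mean was between 0.0133 and 0.213 CPM in the 7 groups.

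On GRCm38, the S100 members lie on chromosome 3 at S100a13 (chr3:90514435-90524581, plus strand), S100a4 (chr3:90603771-90606045, plus), S100a6 (chr3:90612882-90624181, plus), S100a11 (chr3:93520488-93526287, plus) and S100a10 (chr3:93555080-93564643, plus). The annexins are spread out, with Anxa1 at chr19:20373428-20390944 (minus), Anxa2 at chr9:69453620-69491795 (plus), Anxa3 at chr5:96793339-96845966 (plus), Anxa5 at chr3:36448923-36475894 (minus) and Anxa13 at chr15:58341471-58389244 (minus). The annotation lists Anxa13 as a processed transcript and the other 9 as protein-coding genes. Overlap with another annotated gene was found for 5 members. Reads in those genes were few, with 32 for Gm42603 in Anxa3, 9 for Mir3109 in Anxa2, 3 for 1500015L24Rik in Anxa1 and 0 for Gm42674 in S100a4, Gm16144 in Anxa2 and Mir7009 in Anxa5.

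RefSeq promoters (build GRCm38.p6) were matched for 7 of the 10 members, and the 250 bases before each start were searched on both strands for TGAGTCA (the motif of AP-1 factors), TATAAA (the TATA box) and GGAATG (the motif of TEAD factors). S100a10, Anxa3 and Anxa13 had no entry. The 4 printed are those of S100a4, S100a6 and Anxa2, which changed between injured groups, and of S100a11, which held a motif more than once, and capitals mark the matches. The S100a11 window (chr3:93520246-93520495, plus strand) held TGAGTCA 2 times, 136 and 38 bases before the start. Anxa2 (chr9:69453433-69453682, plus) held TGAGTCA 95 bases and TATAAA 17 bases before the start. S100a4 (chr3:90603520-90603769, plus) held TATAAA 31 bases before the start, and S100a6 (chr3:90612644-90612893, plus) held none of the 3.
S100a11: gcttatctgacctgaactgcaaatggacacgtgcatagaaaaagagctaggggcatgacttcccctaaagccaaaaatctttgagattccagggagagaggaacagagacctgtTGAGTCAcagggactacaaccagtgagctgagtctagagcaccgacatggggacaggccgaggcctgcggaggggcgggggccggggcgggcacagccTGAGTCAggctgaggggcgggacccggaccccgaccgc
Anxa2: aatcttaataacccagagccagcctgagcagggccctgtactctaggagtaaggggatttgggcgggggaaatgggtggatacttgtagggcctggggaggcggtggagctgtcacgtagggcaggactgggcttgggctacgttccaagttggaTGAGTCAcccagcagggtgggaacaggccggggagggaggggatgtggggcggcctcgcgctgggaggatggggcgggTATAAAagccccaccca
S100a4: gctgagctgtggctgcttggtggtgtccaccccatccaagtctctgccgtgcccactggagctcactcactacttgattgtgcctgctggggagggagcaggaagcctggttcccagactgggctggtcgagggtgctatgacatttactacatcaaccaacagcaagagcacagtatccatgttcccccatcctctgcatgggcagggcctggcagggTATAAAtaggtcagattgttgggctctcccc
S100a6: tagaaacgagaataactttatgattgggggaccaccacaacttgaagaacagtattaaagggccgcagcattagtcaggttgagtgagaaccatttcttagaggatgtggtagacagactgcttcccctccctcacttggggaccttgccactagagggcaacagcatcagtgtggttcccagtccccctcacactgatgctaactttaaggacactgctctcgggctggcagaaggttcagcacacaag
TGAGTCA occurred in 2 of the 7 member promoters against 4.46% of 32851 promoters of the same length. TATAAA occurred in 3 of 7, also in Anxa1 at 32 bases before the start, against 12.4%. GGAATG occurred in 1 of 7, in Anxa1, against 12.6%. S100a13 and Anxa5 held none of the 3 motifs. A match is a description of the letters, and no match says only that they are not in this window. Binding at these promoters was not measured.

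All 9 tested members were higher in UIRI d3 than in Control, with log2 fold changes from 0.865 (S100a13) to 4.35 (S100a6). Over all genes, 17.8% were called higher in this comparison. Since the list was chosen with earlier results known, counts of members beside such shares are descriptions and no test of the families. The median log2 fold change of the 9 was 1.71, beside 0.000622 over all genes tested. Markers of tubule cells moved with these rises. The summed level of the 8 proximal tubule markers was 9190 to 15400 CPM in UIRI d3, 3780 to 14100 in UIRI d7 and 2130 to 6090 in UIRI+Nx d7, with 7, 8 and 6 of the 8 lower than in Control. The median log2 fold change of these 8 from Control was -1.29, -1.84 and -1.74, an order unlike that of the sums. For 8 injured tubule markers the sum was 64.4 to 136 CPM in Control, 1670 to 2770 in UIRI d3, 1150 to 2200 in UIRI d7 and 951 to 1500 in UIRI+Nx d7, with all 8 higher in each. Their part in the rises of the members was not tested. In UIRI d7 all 9 were again higher, where 21.5% of all genes were, with a median of 2 beside 0.0413. In UIRI+Nx d7, 8 of 9 were higher, where 17.3% of all genes were, with a median of 1.52 beside 0.0231. S100a4 was the exception. Groups did not overlap for 8 members in UIRI d3 (10.3% of all genes were higher without overlap), 7 in UIRI d7 (10.9%) and 7 in UIRI+Nx d7 (9.74%). Anxa1 overlapped Control in all 3 comparisons, S100a10 in UIRI d7 and S100a4 in UIRI+Nx d7.

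**Figure D1:**
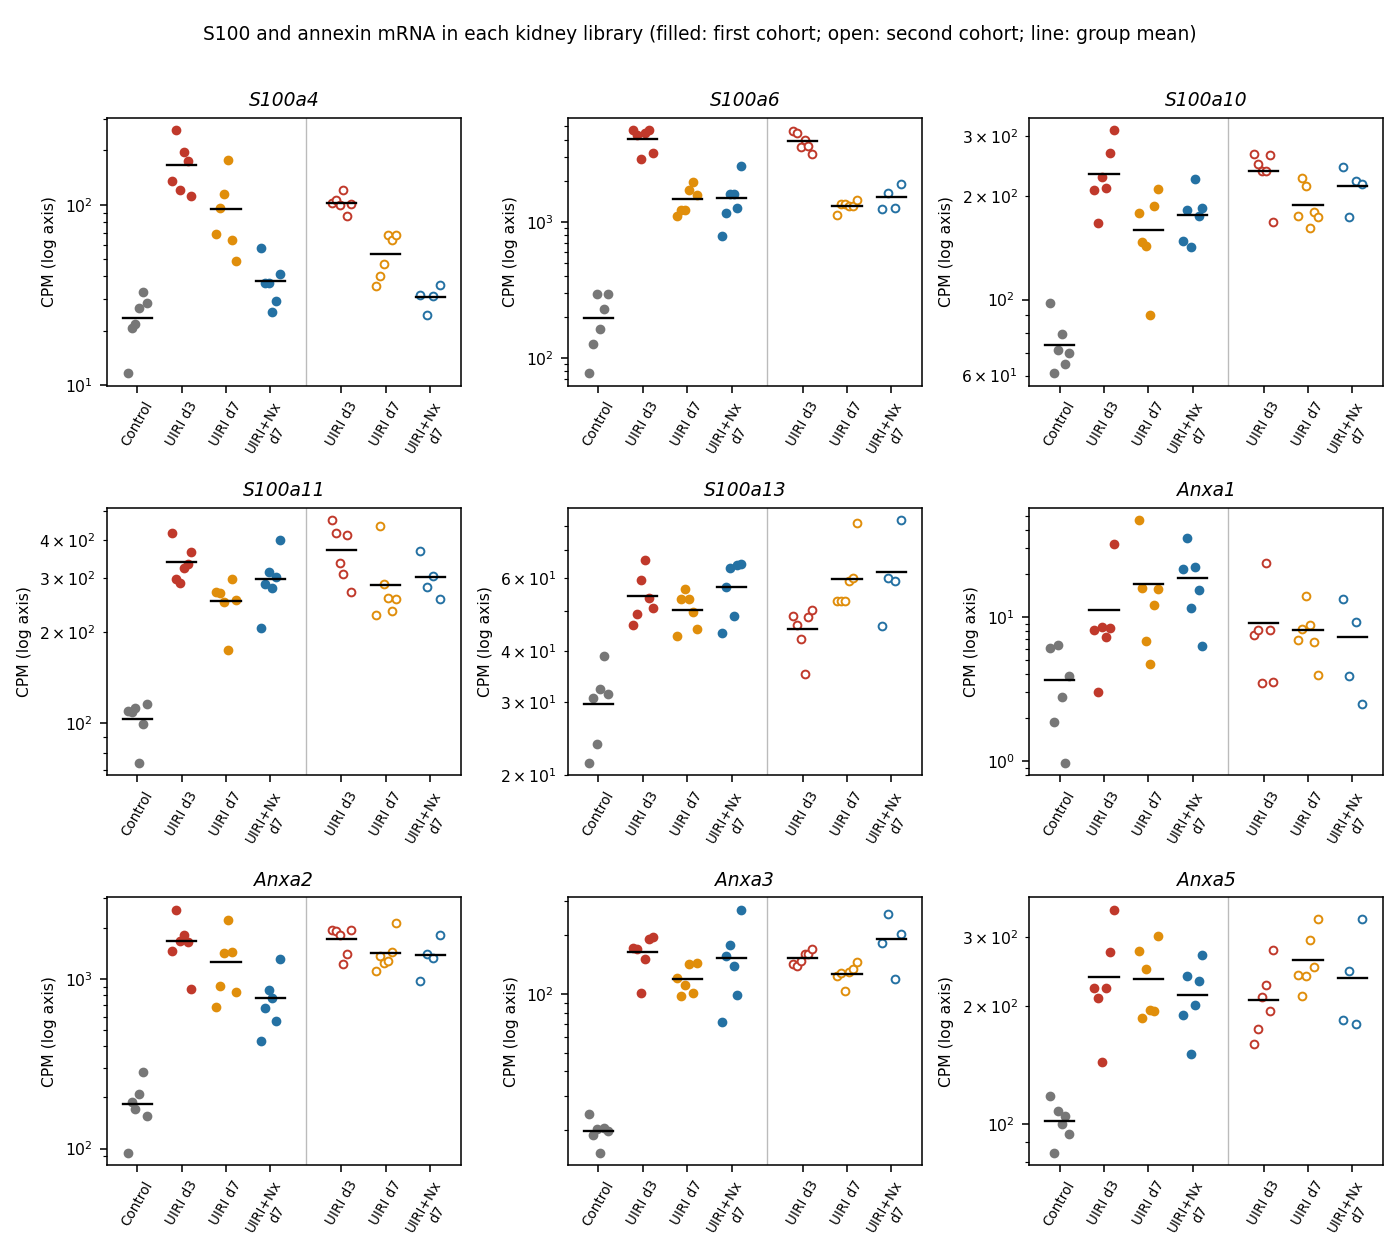
CPM of the 9 tested genes in each library on log axes, with the first cohort to the left of the grey line and the second to the right, 1 point per library and a line at each group mean. In the first cohort all injured libraries lie above Control except some of Anxa1 and S100a4 and 1 of S100a10, and S100a4 steps down from UIRI d3 to UIRI+Nx d7 in both cohorts.

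S100a6, also called calcyclin, is a calcium sensor of proliferating cells and fibroblasts. It had the highest rise of the 9 in UIRI d3 and UIRI d7, and in UIRI+Nx d7 it came next to Anxa3. Control libraries ranged from 77.3 to 297 CPM with a median of 197, and UIRI d3 from 2870 to 4690 with a median of 4400. UIRI d7 ranged from 1100 to 1970 with a median of 1400, and UIRI+Nx d7 from 788 to 2580 with a median of 1430. Every injured library was above every Control library, and every day 7 library was below every UIRI d3 library. The log2 fold change from Control was 4.35 ± 0.32 (SE, adjusted p = 9e-11) in UIRI d3, 2.89 ± 0.30 (2.41e-08) in UIRI d7 and 2.92 ± 0.30 (3.15e-08) in UIRI+Nx d7, by edgeR.

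Against UIRI d3, S100a6 fell by 1.46 on the log2 scale in UIRI d7 (SE 0.288, edgeR adjusted p = 0.00493) and by 1.43 in UIRI+Nx d7 (SE 0.288, 0.00311). Second-cohort UIRI d3 libraries ranged from 3140 to 4640 CPM with a median of 3780, and UIRI d7 from 1120 to 1450 with a median of 1330. The 4 second-cohort UIRI+Nx d7 libraries had 1240, 1270, 1620 and 1900 CPM. Both day 7 groups again lay wholly below day 3, and S100a6 fell by 1.57 (SE 0.14, 9.46e-07) and by 1.37 (SE 0.16, 3.34e-05). Between UIRI+Nx d7 and UIRI d7 the log2 difference was 0.0313 in the first (95% interval -0.522 to 0.584) and 0.197 in the second cohort (-0.102 to 0.496), so no change with nephrectomy was called in either.

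S100a4, also called fibroblast-specific protein 1 and made by fibroblasts and by many leukocytes, including macrophages and T cells, binds non-muscle myosin. Control libraries ranged from 11.6 to 32.7 CPM with a median of 24.2, UIRI d3 from 112 to 259 with a median of 155, and UIRI d7 from 48.5 to 176 with a median of 82.4. UIRI+Nx d7 ranged from 25.4 to 57.5 with a median of 36.8. The injured groups without nephrectomy lay above Control with no overlap, while UIRI+Nx d7 overlapped both Control and UIRI d7. S100a4 rose in UIRI d3 (log2 fold change 2.81 ± 0.30, SE, edgeR adjusted p = 4.4e-08) and in UIRI d7 (2.0 ± 0.29, 4e-06). In UIRI+Nx d7 the difference from Control was 0.678 ± 0.29 (adjusted p = 0.0725) and was not called, and without Control replicate 5 it was 0.794 with an adjusted p of 0.0431. Within single library blocks, which are runs of library numbers in the column names, it was 1.26 in one (adjusted p = 0.00929) and 0.226 in the other (0.765). The labels do not say whether blocks are batches, and groups were spread unevenly over them. First-cohort block 2b held no UIRI d7 library. In the second cohort, block 2a held all 6 UIRI d3 libraries, 2 of UIRI d7 and 2 of UIRI+Nx d7. Block 2c held 4 of UIRI d7 and 2 of UIRI+Nx d7, so group and block cannot be fully told apart.

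At day 7, S100a4 was the only member lower in UIRI+Nx d7 than in UIRI d7 (log2 fold change -1.32 ± 0.29, SE, edgeR adjusted p = 0.00524), where 3.46% of all genes were called lower. Second-cohort UIRI d3 ranged from 86.6 to 121 CPM with a median of 102, UIRI d7 from 35.4 to 68.0 with a median of 55.3, and the 4 UIRI+Nx d7 libraries had 24.5, 31.0, 31.4 and 35.7 CPM. The highest nephrectomy library stood just above the lowest UIRI d7 library. S100a4 was lower after nephrectomy there too (-0.805 ± 0.18, adjusted p = 0.0134), where 2.66% of all genes were. Without nephrectomy replicate 2 the second-cohort difference was -0.708 (adjusted p = 0.0732). Within single library blocks the difference was -1.36 in the first cohort (3 against 3 libraries, adjusted p = 0.308) and -0.458 and -0.897 in the blocks of the second (0.675 and 0.207). It had the same sign in each block and was called in none.

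From day 3 to day 7, S100a4 fell by 2.13 in UIRI+Nx d7 (SE 0.293, edgeR adjusted p = 5.22e-05) and by 1.75 in the second cohort (SE 0.189, 1.22e-05). In UIRI d7 the difference from UIRI d3 was -0.814 (SE 0.282, adjusted p = 0.141) in the first cohort, which was not called, and S100a4 fell by 0.946 (SE 0.16, 0.000803) in the second. UIRI d7 replicate 4, at 176 CPM, was the highest library of its group. Without it the first-cohort difference was -1.09 (adjusted p = 0.0264).

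Markers of leukocytes also differed between these groups. The summed level of 9 macrophage and monocyte markers was 160 to 324 CPM in Control, 431 to 859 in UIRI d3, 1360 to 3130 in UIRI d7 and 1010 to 2050 in UIRI+Nx d7, with no marker at 0 in all libraries of a group. Of these 9 markers, 5 were higher in UIRI d7 than in UIRI d3 in each cohort. Between UIRI+Nx d7 and UIRI d7, 2 of the 9 markers were lower (Adgre1 and the monocyte gene Ly6c2) in the first and 2 (Adgre1 and Ccr2) in the second cohort. The summed level of 5 T and NK cell markers was 6.65 to 23.2 CPM in UIRI d7 and 0.652 to 5.88 in UIRI+Nx d7, and 6.3 to 16.4 and 1.2 to 5.1 in the second cohort. The T and NK cell sums did not overlap between the day 7 groups of either cohort, and the macrophage and monocyte sums did. Only 3 of the 5 T and NK cell markers passed the filter on low counts, and 2 were called lower with nephrectomy in each cohort. In 5 of the 7 groups the library with the highest S100a4 also had the highest macrophage and monocyte sum. In 1 group the library with the lowest S100a4 had the lowest sum. Other marker lists came close to this, since the thick ascending limb sum was highest at the highest S100a4 in 4 groups. The adipocyte sum was lowest there in 4. The part of these leukocytes in the S100a4 difference was not tested. Summed over 7 fibroblast markers, the level was 1390 to 2500 CPM in UIRI d7 and 2120 to 2680 in UIRI+Nx d7, and 1250 to 1780 and 1280 to 1990 in the second cohort. The median log2 difference of the 7 fibroblast markers with nephrectomy was 0.395 and -0.38 in the 2 cohorts.

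**Figure D2:**
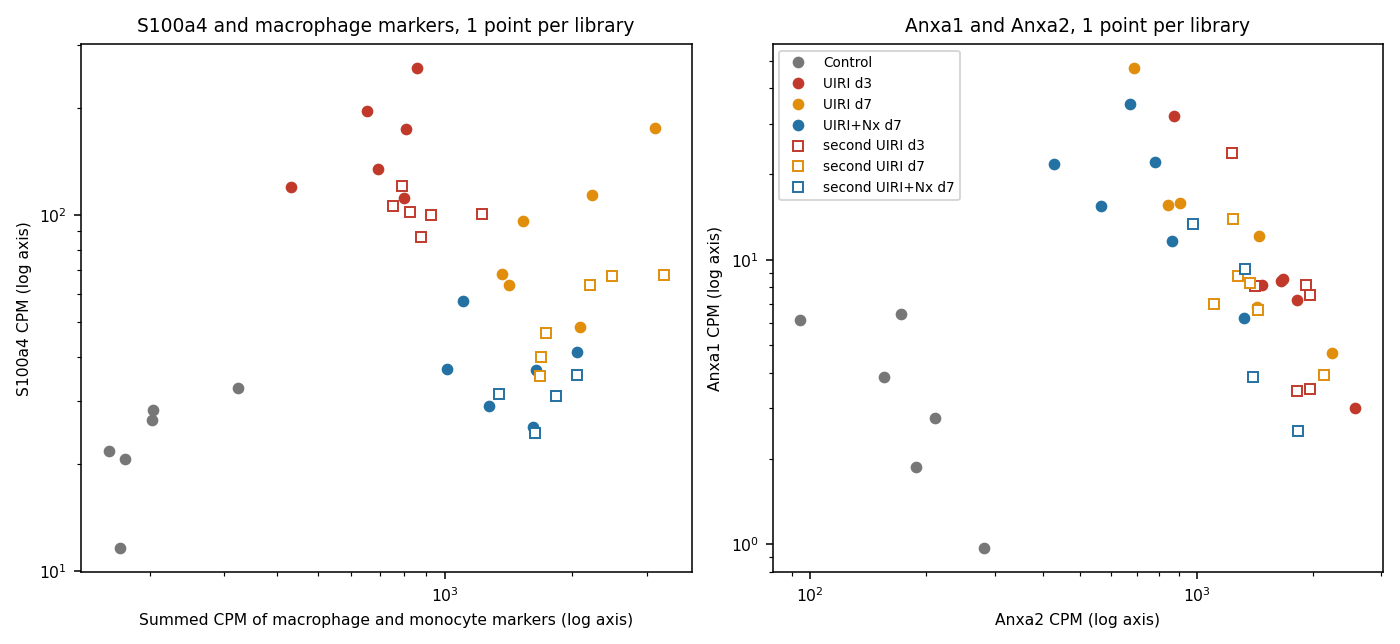
Left, S100a4 CPM against the summed CPM of 9 macrophage and monocyte markers, and right, Anxa1 CPM against Anxa2 CPM, 1 point per library on log axes, with filled circles for the first cohort and open squares for the second. S100a4 is highest in UIRI d3 and the marker sum is highest in UIRI d7, and within most groups the libraries with more Anxa2 have less Anxa1.

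S100a10, also called p11, is the S100 partner of annexin A2 and lacks calcium binding of its own. It ranged from 60.9 to 97.5 CPM in Control with a median of 70.5, from 167 to 312 in UIRI d3 with a median of 220, from 90.2 to 210 in UIRI d7 with a median of 163, and from 142 to 225 in UIRI+Nx d7 with a median of 179. Only UIRI d7 replicate 4, at 90.2 CPM, reached into the Control range. The rise was 1.66 ± 0.19 (SE, edgeR adjusted p = 1.29e-07) in UIRI d3, 1.11 ± 0.19 (2.66e-05) in UIRI d7 and 1.25 ± 0.19 (8.19e-06) in UIRI+Nx d7. Day 7 against day 3 gave -0.544 (adjusted p = 0.131) in the first and -0.331 (0.122) in the second cohort, neither called. The second-cohort groups, at 168 to 266, 162 to 226 and 174 to 244 CPM, overlapped throughout.

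S100a11, or calgizzarin, is the S100 partner of annexin A1 and also takes part in plasma membrane repair. Control ranged from 74.0 to 116 CPM with a median of 110, UIRI d3 from 290 to 421 with a median of 329, UIRI d7 from 174 to 297 with a median of 261, and UIRI+Nx d7 from 205 to 401 with a median of 294. No injured library reached the Control range. The rise was 1.71 ± 0.17 (SE, edgeR adjusted p = 8.82e-09), 1.29 ± 0.16 (5.35e-07) and 1.52 ± 0.17 (6.14e-08). Day 7 against day 3 gave -0.423 (adjusted p = 0.20) in the first and -0.377 (0.189) in the second cohort. The 3 second-cohort groups lay between 227 and 466 CPM and overlapped.

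S100a13 helps to release fibroblast growth factor 1 and interleukin 1 alpha, which lack a signal for ordinary secretion. Control ranged from 21.4 to 38.8 CPM with a median of 31.1, UIRI d3 from 46.1 to 66.2 with a median of 52.3, UIRI d7 from 43.4 to 56.4 with a median of 51.5, and UIRI+Nx d7 from 44.3 to 64.8 with a median of 60.3. The injured groups lay close together and all above Control. The rise was 0.865 ± 0.15 (SE, edgeR adjusted p = 5.74e-05), 0.755 ± 0.15 (0.000214) and 0.941 ± 0.15 (2.2e-05). Libraries of second-cohort UIRI d3 ranged from 35.1 to 50.1 CPM, UIRI d7 from 52.7 to 81.6, and UIRI+Nx d7 had 46.0, 59.1, 60 and 83.0. UIRI d7 lay wholly above UIRI d3 there, where 2.86% of all genes did, yet the difference of 0.402 was not called (adjusted p = 0.0968). Within the library block that held both groups it was 0.207 (2 against 6 libraries, edgeR adjusted p = 0.635). In the first cohort the difference of UIRI d7 from UIRI d3 was -0.11. The difference between cohorts was 0.505 (95% interval 0.0906 to 0.919, unadjusted p = 0.0217, edgeR adjusted p = 1).

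**Figure D3:**
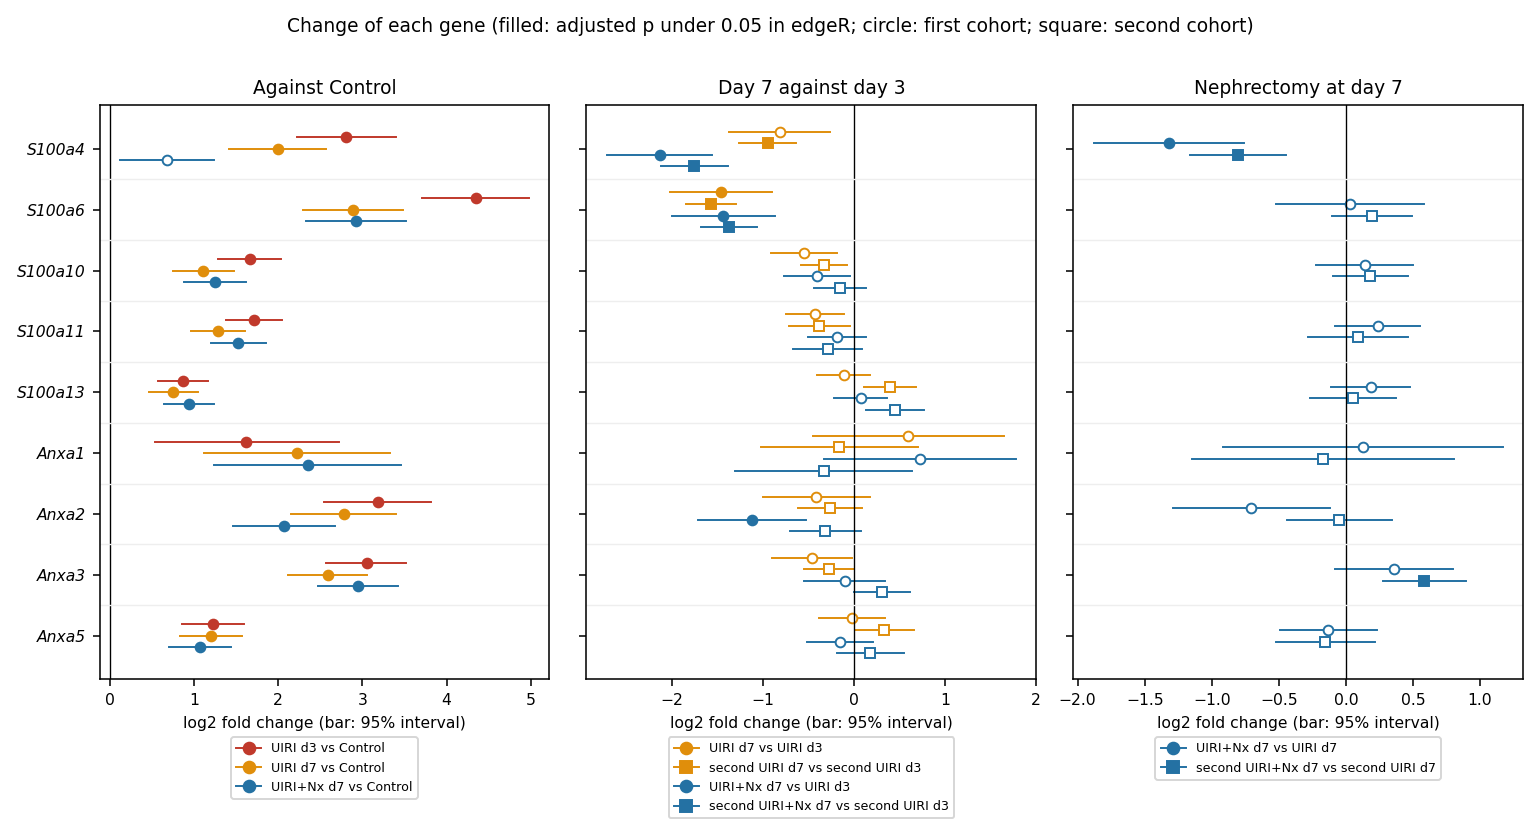
Log2 fold changes of the 9 tested genes with bars for the 95% interval, against Control (left), day 7 against day 3 (middle) and with against without nephrectomy at day 7 (right), with circles for the first cohort and squares for the second, and filled symbols for an adjusted p under 0.05. All symbols on the left lie above 0 and only S100a4 in UIRI+Nx d7 is open, while on the right only S100a4 in both cohorts and Anxa3 in the second are filled.

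Anxa2, the annexin that with S100a10 forms a surface receptor for plasminogen and its activator, had the highest rise among the annexins in UIRI d3. Control ranged from 94.4 to 281 CPM with a median of 180, UIRI d3 from 874 to 2570 with a median of 1660, UIRI d7 from 687 to 2240 with a median of 1170, and UIRI+Nx d7 from 428 to 1320 with a median of 725. No injured library reached the Control range. The rise was 3.19 ± 0.33 (SE, edgeR adjusted p = 1.92e-08), 2.78 ± 0.32 (1.06e-07) and 2.07 ± 0.31 (8.43e-06). In UIRI+Nx d7 it was lower than in UIRI d3 by the test (-1.12 ± 0.30, adjusted p = 0.0272), although leaving out any of 6 libraries moved that p to between 0.0546 and 0.0908. These were UIRI+Nx d7 replicates 1, 2, 4 and 5 and UIRI d3 replicates 2 and 4. Within library blocks it was -1.66 (0.0279) in one and -0.582 (0.713) in the other. Against UIRI d7 the difference was -0.706 ± 0.30 (adjusted p = 0.172). The second-cohort groups lay at 1230 to 1960, 1110 to 2130 and 979 to 1830 CPM, and the difference with nephrectomy at day 7 was -0.0483 (95% interval -0.439 to 0.342).

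Anxa3 is known from neutrophils and from growing epithelium and endothelium. Control ranged from 15.3 to 24.3 CPM with a median of 20.0, UIRI d3 from 101 to 197 with a median of 171, UIRI d7 from 97.5 to 144 with a median of 115, and UIRI+Nx d7 from 72.1 to 271 with a median of 148. Control libraries were all far below the injured ones, and the nephrectomy group had the widest range. The rise was 3.05 ± 0.24 (SE, edgeR adjusted p = 3.31e-10), 2.59 ± 0.24 (3.18e-09) and 2.95 ± 0.24 (7.5e-10). With against without nephrectomy gave 0.359 (adjusted p = 0.393) in the first cohort. In the second, UIRI d7 ranged from 103 to 145 CPM and the 4 nephrectomy libraries had 119, 183, 204 and 256. Anxa3 was higher after nephrectomy there (0.585 ± 0.16, adjusted p = 0.0353), where 2.58% of all genes were called higher. Leaving out any of 8 of the 10 libraries compared ended that call (adjusted p from 0.0548 to 0.211). The 2 whose loss left it were nephrectomy replicate 3 and UIRI d7 replicate 6.

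Anxa1, also called lipocortin, is released by leukocytes and epithelium, binds formyl peptide receptors and limits neutrophil entry. It had the most variable level of the 9, with a coefficient of variation of 41.0 to 93.0% within groups. Control ranged from 0.966 to 6.42 CPM with a median of 3.32, UIRI d3 from 3.0 to 32.1 with a median of 8.27, UIRI d7 from 4.71 to 47.2 with a median of 13.8, and UIRI+Nx d7 from 6.24 to 35.2 with a median of 18.5. Each injured group overlapped Control by its lowest library. The rise was 1.62 ± 0.56 (SE, edgeR adjusted p = 0.0259), 2.22 ± 0.56 (0.0024) and 2.35 ± 0.57 (0.00199). In UIRI d3 the call rested on single libraries, since it was 0.945 (adjusted p = 0.17) without UIRI d3 replicate 6, and the adjusted p was 0.0596 without Control replicate 2 and 0.0563 without Control replicate 5. Within library blocks it was 0.243 (0.777) in one and 2.75 (0.031) in the other. The second-cohort groups, at 3.45 to 23.8, 3.93 to 13.9 and 2.5 to 13.3 CPM, overlapped throughout.

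Anxa5, which binds phosphatidylserine exposed on dying cells, had a nearly level rise. Control ranged from 84.6 to 118 CPM with a median of 103, UIRI d3 from 144 to 353 with a median of 223, UIRI d7 from 187 to 303 with a median of 222, and UIRI+Nx d7 from 151 to 270 with a median of 217. All injured libraries were above all Control libraries, and the injured groups overlapped each other. The rise was 1.23 ± 0.19 (SE, edgeR adjusted p = 1.02e-05), 1.2 ± 0.19 (9.69e-06) and 1.07 ± 0.19 (6.28e-05). The second-cohort groups lay at 160 to 278, 212 to 334 and 180 to 333 CPM, and no difference was called.

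Between the injured groups few members changed. In UIRI d7 against UIRI d3, 1 member of 9 (S100a6) was lower by edgeR, where 1.36% of all genes were, and this member lay wholly below UIRI d3, where 1.38% of all genes did. Of the second-cohort libraries the same contrast gave 2 lower (S100a4 and S100a6), where 4.05% of all genes were, both without overlap (2.6% of all genes). With nephrectomy, 3 (S100a4, S100a6 and Anxa2) were lower than in UIRI d3, where 3.06% of all genes were, and 2 (S100a4 and S100a6) in the second cohort, where 3.04% were. S100a4 and S100a6 did so without overlap in both cohorts, as did 2.24% and 3.74% of all genes. Differences between the cohorts were fitted in 1 model of 16606 genes and 7 groups. None of the 9 members, and 0% of all genes, were called by edgeR in any of the 3 differences. At an unadjusted p under 0.05 there was 1 member (S100a13) for day 7 against day 3 and 0 for both nephrectomy comparisons, and DESeq2 was not run on these differences.

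The count of S100a10 was divided by that of Anxa2 in the same library, a ratio that does not depend on scaling between libraries. Its log2 ratio was -2.12 to 0.046 in Control with a median of -1.34, -3.94 to -1.48 in UIRI d3 with a median of -2.84, and -4.63 to -1.94 in UIRI d7 with a median of -2.79. The groups overlapped. The mean ratio fell by 1.55 in UIRI d3 and by 1.65 in UIRI d7, by exact permutation, two-sided, of 6 against 6 libraries (p = 0.00649 for each, where 0.00216 is the smallest possible, and 0.0438 when adjusted over the 27 ratio tests). In UIRI+Nx d7 the ratio was -2.84 to -1.53 with a median of -1.84, and its difference from Control of -0.801 did not pass (exact p = 0.0476, adjusted p = 0.143). The 3 second-cohort groups had mean log2 ratios of -2.85, -2.90 and -2.67.

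For S100a6 over its neighbour gene S100a4, the log2 ratio was 2.60 to 3.75 in Control, 4.06 to 5.12 in UIRI d3, 3.29 to 5.01 in UIRI d7 and 3.77 to 5.98 in UIRI+Nx d7. UIRI d3 and UIRI+Nx d7 lay wholly above Control. The rise was 1.66 in UIRI d3 and 2.28 in UIRI+Nx d7 (both exact permutation p = 0.00216, the smallest possible, adjusted p = 0.0292), while 1.08 in UIRI d7 did not pass (adjusted p = 0.0668). Second-cohort ratios were 4.95 to 5.50 at day 3 and 4.27 to 5.06 in UIRI d7, and the 4 nephrectomy libraries had 5.30, 5.36, 5.73 and 6.05. It fell by 0.578 from UIRI d3 to UIRI d7 (exact p = 0.0108, adjusted p = 0.0487). All 6 UIRI d3 libraries were of block 2a, where the 2 UIRI d7 libraries had 4.99 and 5.06, within the day 3 range. Those of UIRI d7 in block 2c had 4.27 to 4.86, and the test took no account of block. With nephrectomy the ratio was 0.949 above UIRI d7 without overlap (exact p = 0.00952, the smallest possible for 4 against 6, adjusted p = 0.0487). None of the 9 tests of S100a11 over Anxa1 passed, and its adjusted p ran from 0.208 to 0.99. In all, 6 of 27 ratio tests passed. With 1 library left out, when the smallest possible p is larger, 0 passed without Control replicate 1, 2, 3, 4 or 6 or UIRI d3 replicate 1, 2, 3, 4 or 5, and 2 passed without UIRI d7 replicate 2, 3, 4 or 5. With any other library left out, 4 to 8 passed.

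**Figure D4:**
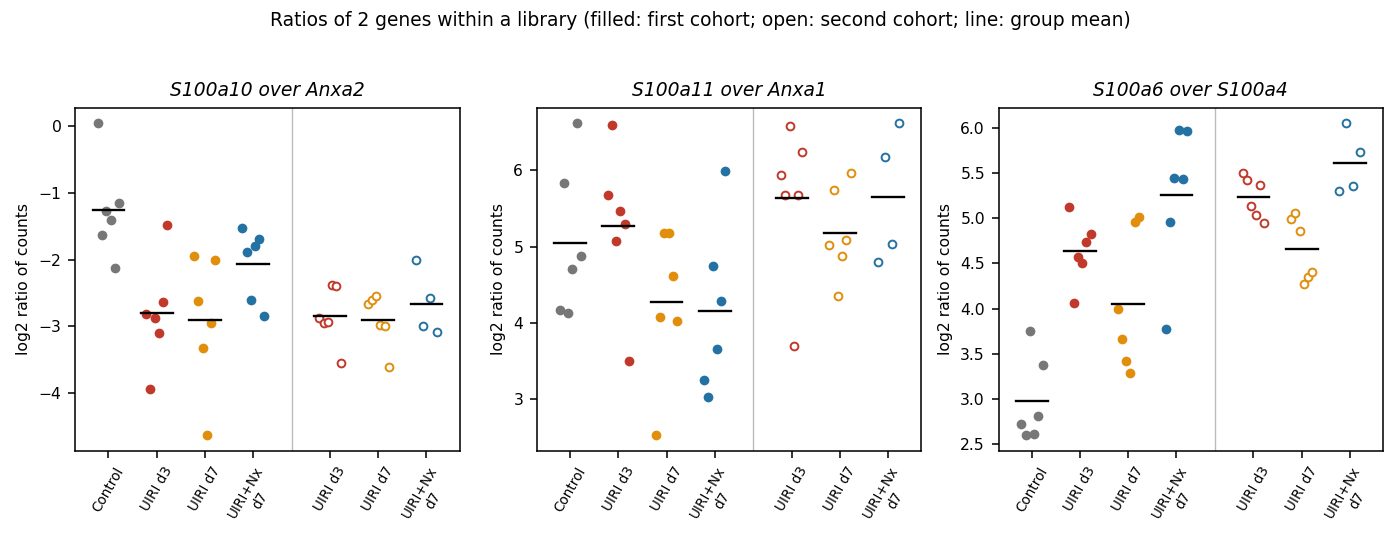
Log2 ratios of the counts of 2 genes in the same library, 1 point per library with a line at the group mean, for S100a10 over Anxa2, S100a11 over Anxa1 and S100a6 over S100a4, with the first cohort filled and the second open. S100a6 over S100a4 is lowest in Control (2.60 to 3.75), and S100a10 over Anxa2 is highest there (-2.12 to 0.046).

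Within groups Anxa1 and Anxa2 tended to opposite ends. In 6 of the 7 groups the library with the highest Anxa2 had the lowest Anxa1, as in UIRI d7, where replicate 4 had 2240 CPM of Anxa2 and 4.71 of Anxa1. Conversely, the library with the lowest Anxa2 had the highest Anxa1 in 4 of the 7, as in UIRI d3, where replicate 6 had 874 CPM of Anxa2 and 32.1 of Anxa1. The library with the highest Anxa2 was also the highest for S100a4 in 5 groups and for S100a6 and S100a13 in 4 each, and it was the lowest for none of these 3 in any group. The library with the lowest Anxa2 was the lowest for S100a13 in 6 groups, for S100a6 in 5 and for S100a4 in 3, and it was the highest for S100a4 in 2. S100a10, the protein partner of annexin A2, was highest in 1 group and lowest in 2 at the highest Anxa2, and highest in 3 and lowest in 0 at the lowest Anxa2. The pattern was noticed in the data and no test was made of it.

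Library measures moved with it. The library with the highest Anxa2 also had the highest summed level of macrophage and monocyte markers in 6 of the 7 groups, as in UIRI d7 replicate 4 with 3130 CPM in a group whose lowest was 1360. The library with the lowest Anxa2 had the highest share of reads on mitochondrial genes in 6 of the 7 groups, as in UIRI d3 replicate 6 with 5.27% in a group whose lowest was 3.28%. Its total count was the highest in 1 group and the lowest in 2. The opposite ends were less regular. The macrophage and monocyte sum was lowest at the lowest Anxa2 in 3 groups, and the mitochondrial share was lowest at the highest Anxa2 in 2. Other marker lists also stood at an end. The fibroblast sum was highest at the lowest Anxa2 in 5 groups. The smooth muscle sum was highest at the highest Anxa2 in 4 and lowest at the lowest in 4. Endothelium and mesothelium sums were lowest at the lowest Anxa2 in 4 each, and the adipocyte sum was lowest at the highest in 4. At the highest Anxa1 the fibroblast sum was highest in 4 groups and the macrophage and monocyte sum lowest in 4. At the lowest Anxa1 the macrophage and monocyte sum was highest in 6, the adipocyte sum lowest in 5 and the fibroblast sum lowest in 4. The part of these measures in the opposite order of Anxa1 and Anxa2 was not tested.

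Of 11 other S100 genes, 10 were tested, and 6 were higher and 1 lower in UIRI d3, 5 higher and 1 lower in UIRI d7, and 4 higher and 1 lower in UIRI+Nx d7. Over all genes, 17.8%, 21.5% and 17.3% were called higher. The medians of the 10 were 1.96, 0.906 and 0.227, beside 0.000622, 0.0413 and 0.0231 over all genes. S100a8, which with S100a9 forms calprotectin of neutrophils and monocytes, rose by 6.41 on the log2 scale in UIRI d3 (SE 0.912, edgeR adjusted p = 3.62e-06). Its libraries ranged from 1.19 to 7.35 CPM in Control and from 22.1 to 1390 in UIRI d3, with a median of 78.3. S100a9 rose by 5.70, from 1.3 to 3.87 CPM in Control to 17.4 to 523 in UIRI d3. The summed level of 5 neutrophil markers was 0 to 1.78 CPM in Control and 4.39 to 92.9 in UIRI d3, where replicate 3 had the 92.9 and the next 13.3, and its part in these rises was not tested. S100a3, a neighbour of S100a4, rose by 4.76 in UIRI d3, 3.32 in UIRI d7 and 1.96 in UIRI+Nx d7, at levels of 0 to 0.432 CPM in Control and 2.9 to 7.38 in UIRI d3. S100a14, an epithelial S100, rose by 2.06, 2.14 and 2.27.

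S100g, the calcium-carrying calbindin-D9k of the distal tubule, went the other way. It ranged from 1490 to 2140 CPM in Control, from 277 to 409 in UIRI d3, from 165 to 417 in UIRI d7 and from 520 to 703 in UIRI+Nx d7. Control lay above all injured groups and the nephrectomy group above both other injured groups. S100g fell by 2.50 in UIRI d3 (SE 0.19, edgeR adjusted p = 1.2e-10), by 2.84 in UIRI d7 (1.95e-11) and by 1.61 in UIRI+Nx d7 (1.44e-07). It was higher with than without nephrectomy at day 7, by 1.23 (adjusted p = 0.000121) in the first and by 1.84 (6.7e-05) in the second cohort, where UIRI d7 ranged from 114 to 267 CPM and the nephrectomy libraries from 509 to 1050. The summed level of 4 other markers of the distal convoluted and connecting tubule was 919 to 1410 CPM in Control, 117 to 177 in UIRI d7 and 320 to 699 in UIRI+Nx d7, and 72.6 to 128 and 154 to 471 in the second-cohort day 7 groups. With nephrectomy at day 7, 1 of these 4 markers was called higher in the first cohort, and 1 of the 3 tested in the second. Their median log2 difference was 0.265 and 0.717. The part of these cells in the S100g difference was not tested.

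Of 7 other annexins, 5 were tested. Beside 17.8%, 21.5% and 17.3% of all genes, 2 were higher in UIRI d3, 2 in UIRI d7 and 1 in UIRI+Nx d7, with none lower. These were Anxa4, an annexin of epithelial secretion, which rose by 0.486, 0.571 and 0.486 (edgeR adjusted p = 0.00604, 0.00119 and 0.00635), and Anxa6, which rose by 0.742 (0.00333) and 1.06 (6.38e-05) and differed by 0.371 (0.147) in UIRI+Nx d7. Anxa6 was also lower in UIRI+Nx d7 than in UIRI d7 (-0.691, adjusted p = 0.0271), with -0.24 (0.439) in the second cohort. The fold changes of these 2 were below those of all annexin members that were tested.

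**Figure D5:**
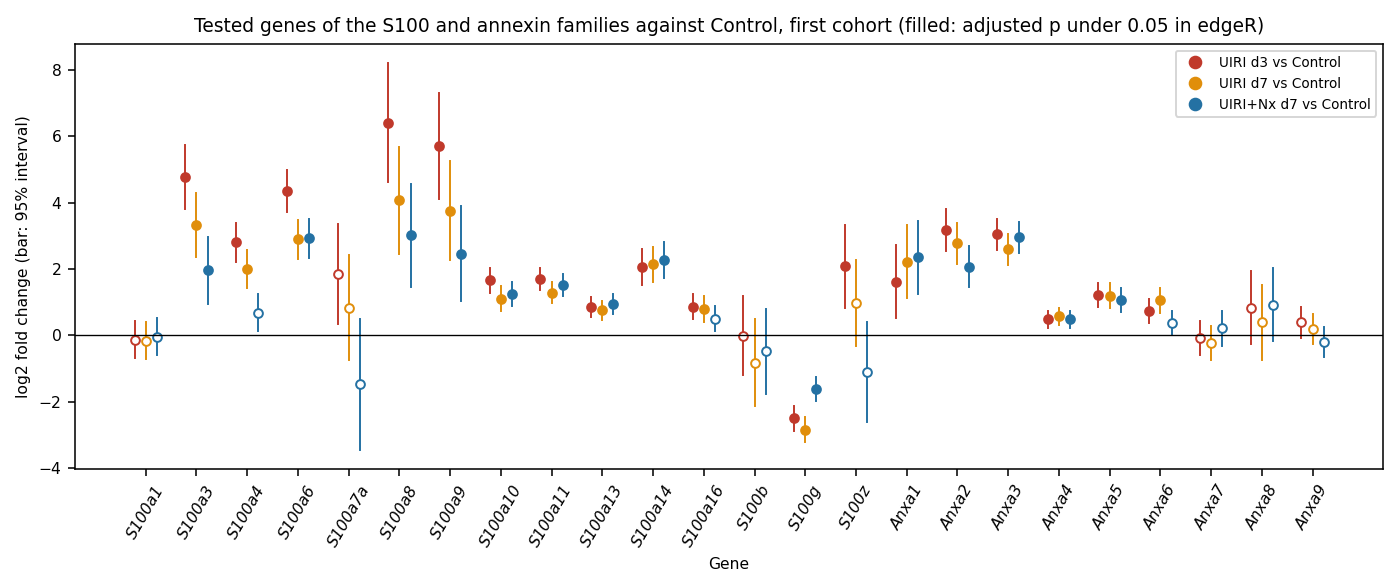
Log2 fold changes against Control of all tested S100 and annexin genes in the 3 injured groups of the first cohort, with bars for the 95% interval and filled symbols for an adjusted p under 0.05. S100g is the only gene with filled symbols below 0, and S100a8 in UIRI d3 is the highest at 6.41.

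Among 24 partners, receptors and cargo of these proteins, 22 were tested. In UIRI d3 11 were higher and 1 lower, in UIRI d7 13 and 1, and in UIRI+Nx d7 10 and 1. The share of all genes called higher was 17.8%, 21.5% and 17.3%. Plaur, the urokinase receptor of the plasminogen system, was at 1.5 to 2.58 CPM in Control and 11.8 to 24.1 in UIRI d3, and rose by 3.29, 2.56 and 3.01. Ahnak2, a relative of the large scaffold protein that binds S100a10 with annexin A2, rose by 2.37, 3.76 and 3.61, and was the 1 gene of this list higher in UIRI d7 than in UIRI d3 (1.39, edgeR adjusted p = 0.0148, and 1.29, 0.00169 in the second cohort). Fpr2, a formyl peptide receptor for annexin A1, rose by 4.28, 3.20 and 3.23 from 0.104 to 0.404 CPM in Control. Myh9, the myosin heavy chain bound by S100a4, rose by 1.30, 1.61 and 1.17. Fgf1, the growth factor released with S100a13, was the gene that fell, by 1.30, 1.64 and 1.89, from 126 to 246 CPM in Control to 61.6 to 87.7 in UIRI d3. The S100a13 gene rose in the same libraries.

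Of 12 genes of calcium-dependent membrane repair, 11 were tested, and 8, 7 and 6 were higher in UIRI d3, UIRI d7 and UIRI+Nx d7, with none lower. Among all genes, 17.8%, 21.5% and 17.3% were called higher. Myof, a ferlin of membrane fusion and repair, was at 26.9 to 44.9 CPM in Control and 158 to 211 in UIRI d3 without overlap, and rose by 2.37, 2.53 and 2.39 (edgeR adjusted p = 8.53e-12, 2.31e-12 and 6.47e-12). Dysf, the related dysferlin, rose by 1.15, 1.19 and 0.595. Ehd2, a membrane-bending protein of caveolae, rose by 1.18, 1.13 and 0.676, and the calpain protease Capn2 by 0.894, 0.728 and 0.906. With against without nephrectomy at day 7, the median log2 difference of the 11 was -0.0846 in the first and 0.011 in the second cohort.

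Neighbours on chromosome 3 had unlike changes in some cases and like changes in others. S100a1 ends 42 bases before S100a13 starts, on the other strand, and its log2 fold changes of -0.125, -0.154 and -0.0456 were not called, while S100a13 rose. S100a3, S100a4, S100a5 and S100a6 follow each other on the plus strand, and S100a5 was too low to test. S100a10 and S100a11, which lie 28792 bases apart, were the members most like each other. Over the 7 group means of log2 CPM (1 CPM added), each cohort centred on its own mean, their root mean square difference was 0.0861.

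By the same measure over 15227 genes, the genes most like each member outside the list were named. For S100a4 they were S100a3 (0.227) and Rmi2 (0.234), and for S100a6 Plk1 (0.263) and Cdk1 (0.281), both kinases of mitosis. For S100a10 they were Cenpt (0.0783) and Ywhah (0.0840), for S100a11 Nrg1 (0.0749) and Ammecr1 (0.0785), and for S100a13 B3galt1 (0.0480) and Rplp1 (0.0498). Among the annexins they were Arl11 (0.112) and Spns2 (0.118) for Anxa1, Gprc5a (0.116) and Tubb5 (0.131) for Anxa2, Slc25a24 (0.117) and Cdkn1a (0.129) for Anxa3, and Map7d1 (0.0465) and Uox (0.0468) for Anxa5. The nearest genes to S100a4 and S100a6 stood farther from them than those of the other 7 members. Adding 1 CPM narrows differences at low levels such as those of S100a3. Against Control, edgeR gave log2 fold changes of 4.76, 3.32 and 1.96 for S100a3, beside 2.81, 2 and 0.678 for S100a4.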

How the data were processed

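Messenger RNA of mouse kidney was read as 3′ tags (QuantSeq 3′ FWD), and the authors deposited counts of reads per gene for 41 columns and 48795 genes, per the file headers. For the first cohort the submitters' processing notes name Trimmomatic, STAR, HTSeq 0.6.1 and GRCm38 (mm10), and for the second STAR 2.7.11b and GRCm39. Neither the strand setting nor the annotation release, nor how second-cohort reads were counted, is stated in the sources at hand, so reads of overlapping genes on opposite strands cannot be told apart and values are not compared between cohorts. Samples were grouped by title and treatment, and 1 library without a group entered no comparison.

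The cohorts were fitted separately on all groups with edgeR 4.0.16 (R 4.3.3, filterByExpr, TMM, quasi-likelihood F test), giving 15701 and 15543 tested genes, and together (16606 genes) for differences between cohorts. The SE is the log2 fold change divided by the root of F, and 95% intervals assume a normal error. P-values were adjusted by Benjamini-Hochberg over all tested genes, with a threshold of 0.05. Depth ran from 5090418 to 33362940 counts, and no 2 libraries of a group agreed within sampling noise. Nothing says whether libraries of a group came from separate mice in the second cohort, so p-values there measure the spread between libraries, which may be technical.

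Log2 ratios of counts (with 1 count added) were compared by exact permutation of libraries. The edgeR step was tested on simulated data. The members and gene lists (other S100 genes, other annexins, partners and receptors, membrane repair, cell type markers) were chosen with earlier results of these data known. The text names from each list at most 4 genes with the smallest adjusted p in a comparison. S100a1 and S100a5 are named apart from this rule, for their place on chromosome 3. As most alike it names the 2 genes per member with the smallest root mean square difference of group means. Those are means of log2 CPM with 1 CPM added. Alternatives were DESeq2 1.42.0, RLE factors, no count filter, a replicate block, a library block, each library left out and, chosen after seeing the data, fits within library blocks. Same-numbered libraries of 2 groups had deviations correlated from -0.48 to 0.518, so the numbers do not pair them.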

Additional observations from a re-analysis of the deposited data

Results flagged for a closer look

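In 8 of 84 sets of 4 or 6 libraries of a group, 1 library stood apart from the rest by Dixon's criterion, which chance alone meets in about 1 of 20 sets. Anxa1 had 3 of them, each a high library, at 32.1 CPM in UIRI d3 replicate 6 (next 8.54), 47.2 in UIRI d7 replicate 1 (next 15.8) and 23.8 in second-cohort UIRI d3 replicate 4 (next 8.15). All 3 were also the libraries with the lowest Anxa2 of their groups. In second-cohort UIRI d3 replicate 4, the log2 ratio of S100a11 over Anxa1 was the lowest of its group at 3.69 (next 5.67). Second-cohort UIRI d7 replicate 6 was the highest of its group for S100a13 (81.6 CPM, next 60.1) and for Anxa2 (2130, next 1440). S100a11 stood apart at 444 CPM in second-cohort UIRI d7 replicate 2 (next 287), and S100a10 at 168 CPM in second-cohort UIRI d3 replicate 6, the lowest of its group (next 237).

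A column titled UNDETERMINED has no group in the labels, so it is no sample of a known mouse and entered no test. Its 9 values, as plain CPM without TMM factors, stood above the highest Control library and within the range of the injured libraries. They were 77.0 CPM for S100a4 (highest Control library 25.9), 2610 for S100a6 (259, injured libraries 816 to 5140), 191 for S100a10 (89.0), 317 for S100a11 (101) and 52.1 for S100a13 (30.8). Among the annexins they were 10.5 for Anxa1 (5.66), 1210 for Anxa2 (223), 145 for Anxa3 (22.2) and 217 for Anxa5 (108). Counting error is small at its depth of 12446693 counts, with Wilson 95% intervals of 72.3 to 82.1 for S100a4 and 8.87 to 12.5 for Anxa1. These intervals cover counting error only.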

How the results depend on the processing

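DESeq2, RLE factors, no count filter and the replicate block kept the count of changed members within 1.5 times its value in all 9 comparisons within cohorts. The replicate block turned S100a6 in UIRI+Nx d7 against UIRI d7 to -0.0179 and Anxa2 in the second cohort to 0.042, neither called. With library block as a covariate those were -0.115 and 0.00132, S100a13 and Anxa5 in UIRI d7 against UIRI d3 were 0.00586 and 0.16, Anxa3 with nephrectomy in the second cohort was 0.542 (edgeR adjusted p = 0.0545), and members changed there numbered 1 rather than 2. Within single library blocks, members changed numbered 9 and 4 for UIRI+Nx d7 against Control (not 8) and 4 and 1 for UIRI+Nx d7 against UIRI d3 (not 3), in blocks 1a and 2b, and 0 for UIRI d7 against UIRI d3 (block 1a) and for nephrectomy at day 7 in either cohort. Over all genes, the blocks with 0 members called 0, 0, 8 and 16 genes. The cause of these changes was not tested. With 1 library left out, members changed ran from 1 to 2 for UIRI d7 against UIRI d3 and from 0 to 2 for nephrectomy in the second cohort, and ratios passing from 0 to 8. Uncalled log2 differences crossed 0 when 1 library was left out. In the first cohort, for UIRI d7 against UIRI d3 they ran from -0.0421 to 1.28 for Anxa1 and -0.136 to 0.121 for Anxa5, for UIRI+Nx d7 against UIRI d3 from -0.343 to 0.0434 for Anxa3, and for nephrectomy at day 7 from -0.192 to 0.163 for S100a6 and -0.146 to 0.768 for Anxa1. In the second cohort, UIRI d7 against UIRI d3 gave -0.359 to 0.405 for Anxa1, and UIRI+Nx d7 against UIRI d3 gave -0.781 to 0.233 for Anxa1 and -0.0297 to 0.292 for Anxa5. Nephrectomy at day 7 gave -0.0185 to 0.263 for S100a11, -0.114 to 0.174 for S100a13, -0.623 to 0.0938 for Anxa1 and -0.211 to 0.1 for Anxa2. The S100a10 over Anxa2 ratio ran from -0.331 to 0.24 for UIRI d7 against UIRI d3, and in the second cohort from -0.192 to 0.089 there and from -0.0399 to 0.317 for UIRI+Nx d7 against UIRI d3. The S100a11 over Anxa1 ratio ran from -0.0438 to 0.575 for UIRI d3 against Control, -0.477 to 0.117 for nephrectomy at day 7, and -0.373 to 0.304 for second-cohort UIRI+Nx d7 against UIRI d3. Leaving out 1 library also brought calls of S100a10 without UIRI d3 replicate 6 (-0.413, adjusted p = 0.0321) and S100a11 without UIRI d7 replicate 2 (-0.55, 0.0255), in UIRI d7 against UIRI d3 of the second cohort. For UIRI+Nx d7 against UIRI d3 there, it brought calls of S100a13 without nephrectomy replicate 1 (0.573, 0.0368) and Anxa3 without nephrectomy replicate 3 (0.484, 0.0393). Over all genes, calls in UIRI d7 against UIRI d3 numbered 409 with edgeR, 710 with DESeq2, and 263 and 247 without UIRI d7 replicate 2 or 3, and calls in UIRI+Nx d7 against UIRI d3 numbered 805, and 525 and 524 without UIRI+Nx d7 replicate 3 or 4. In the second cohort the same comparisons gave 1330 (349 with library block) and 935 (554 and 615 without nephrectomy replicate 2 or 4), and nephrectomy at day 7 gave 814 (328 without nephrectomy replicate 2). The single cohort-difference call in any setting came without second-cohort UIRI d7 replicate 6. Anxa13, with 45 reads in all, was compared only without the count filter.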
